A study of Mus musculus with 8 samples.

Results

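The hedgehog receptors and GLI factors described here are 10 genes, Boc, Cdon, Gas1, Ptch1, Smo, Gli1, Gli2, Gli3, Hhip and Sufu, of 21612 genes named on the array. They were selected by gene name, and all 17 probes whose accession maps to one of them were used. The family was chosen because Boc was among the larger decreases with irisin in these same arrays. Boc was 13th in size among 1403 genes that were lower with irisin, above background on all 8 arrays and without overlap between the groups, and the genes next to it in that order changed by −1.52 and −1.48 on the log2 scale. The change of Boc is therefore given as a description with no test. The tests of the other members use the same arrays and the same comparison.

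AML12 is a hepatocyte line established from the liver of a mouse with a transforming growth factor alpha transgene, and irisin is a peptide cleaved from Fndc5. Cells on 10 cm dishes in DMEM F-12 with 10% FBS received irisin at 0.5 µg/ml for 24 h (n = 4) or were controls (n = 4), and each sample was hybridized to its own one-color Agilent array. A single line and a single dose and time were used, and nothing in the labels says whether the 4 samples of a group came from separate cultures, so the p-values measure the spread between these samples. All control arrays were on one slide and in one scan, and all irisin arrays were on another slide and in another scan, so slide, scan and irisin cannot be told apart in any value below.

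The hedgehog ligands Shh, Ihh and Dhh bind the receptor Ptch1, and Boc, Cdon and Gas1 act beside it as co-receptors that help to catch the ligand. Free Ptch1 holds Smo in check. Bound Ptch1 releases Smo, which acts at the primary cilium and keeps the transcription factors Gli2 and Gli3 from being cut to repressors, while Sufu holds GLI proteins in the cytoplasm. Gli1, Ptch1 and Hhip are classical target genes, and Ptch1 and Hhip take up ligand and so limit the pathway. In the adult liver the pathway is known for its activity in stellate and bile duct cells during injury, whereas hepatocytes are held to have little.

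Levels are log2 signals minus the log2 75th percentile of their array unless another scale is named, so that 0 is the 75th percentile itself. Before scaling, the 75th percentile ranged from 372 to 534 in the controls and from 682 to 850 with irisin, a difference of 0.74 on the log2 scale. The negative control spots, which read only the background, did not share this difference, with mean processed signals of 0.992 and 1.00. The 8 spike-in control probes differed by 0.16 on the log2 scale, with groups that overlapped. A signal that was equal on all arrays before scaling is thus lower with irisin by 0.74 after it, and both scales are given for the members below. The hepatocyte label was borne out by all 10 hepatocyte markers, Alb and Hnf4a among them, which were above background on all 8 arrays. Of 8 stellate cell and fibroblast markers, Lrat, Des, Reln, Pdgfrb and Dcn were above background on no array. The others, Gfap, Col1a1 and Acta2, were above background on all 8 arrays. So were the cholangiocyte markers Krt7, Krt19 and Sox9.

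Of the 10 members, 7 had a probe rated well above background throughout a group, namely Boc, Cdon, Gas1, Ptch1, Smo, Gli3 and Sufu, with 11 such probes among the 17. Gli1 was above background on 2 control and 2 irisin arrays, and Gli2 and Hhip on none. Boc and Gas1 were lower with irisin by 2.82-fold and 1.78-fold after scaling. In bulk RNA, fewer cells that express a gene and less RNA in each cannot be told apart. No member probe was called higher. The co-receptor Cdon, the receptor Ptch1, the transducer Smo, the factor Gli3 and the inhibitor Sufu did not pass the threshold of 1.5-fold and an adjusted p under 0.05. A probe was called lower in 11.7% of all 24093 tested probes and higher in 0.714%. Leaving out Boc, 1 of the 10 other tested member probes was called lower. The median change was −0.13 over the 11 member probes and −0.080 over all tested probes.

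**Figure D1:**
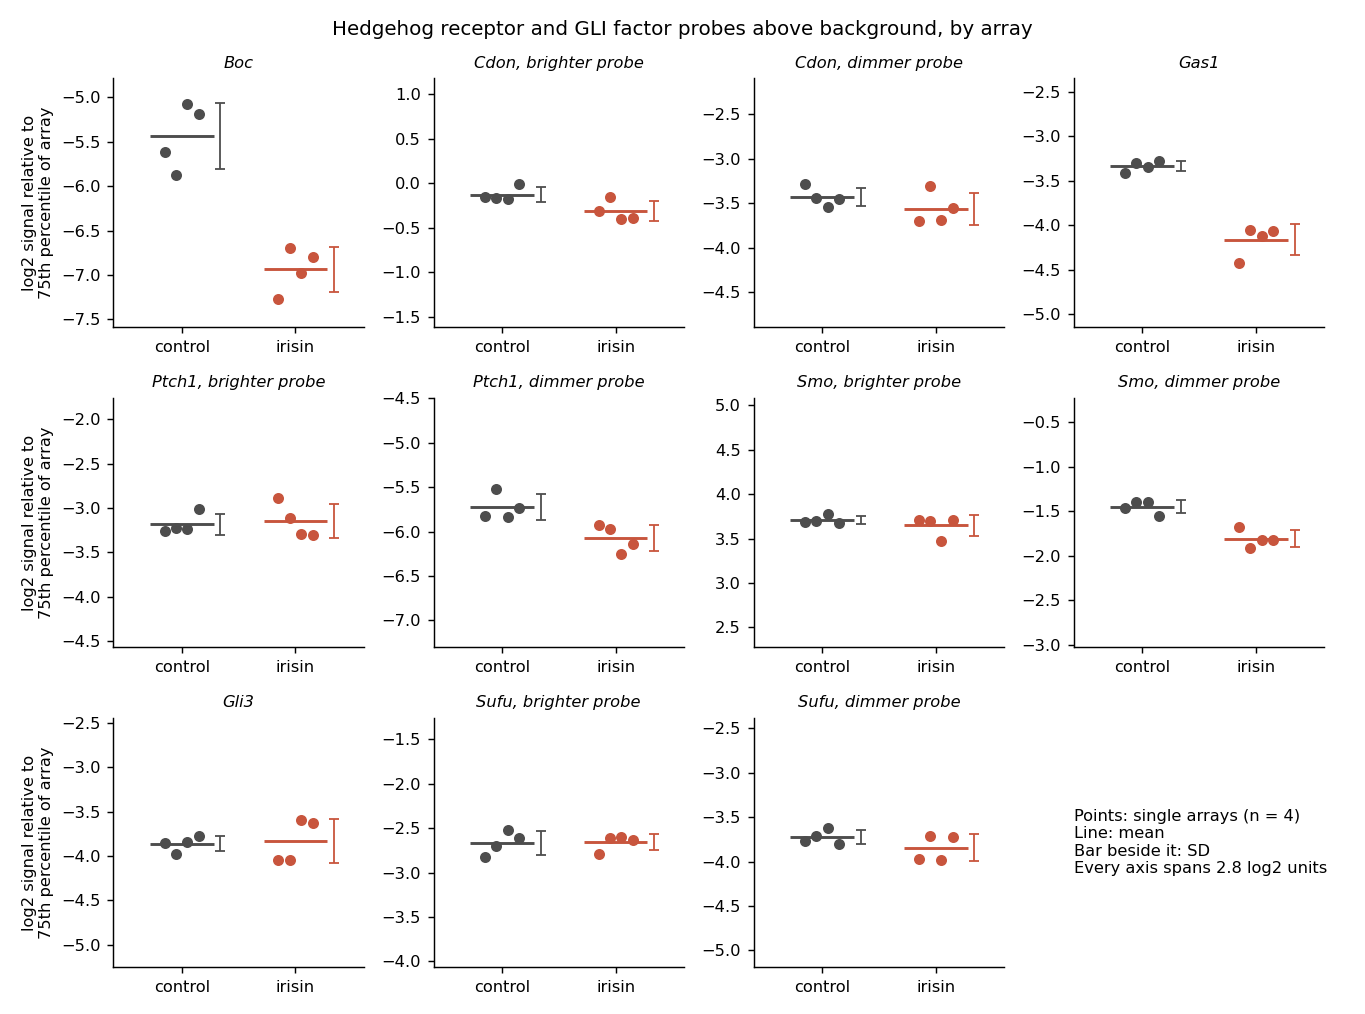
Log2 signal minus the log2 75th percentile of the same array for the 11 tested probes, with the 4 control arrays in grey and the 4 irisin arrays in red. Points are arrays, lines are means and bars are SDs, and every axis spans 2.8 log2 units. For Boc and Gas1 the groups lie far apart on this span, while for Gli3, Sufu, Cdon and the brighter Ptch1 and Smo probes they overlap.

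Boc is a transmembrane co-receptor for all hedgehog ligands and was first known from muscle cell differentiation. Its probe had levels of −5.62, −5.87, −5.08 and −5.19 on the control arrays. On the irisin arrays they were −7.27, −6.70, −6.98 and −6.80. Every irisin array was below every control array, and the means were −5.44 ± 0.370 (SD, n = 4) and −6.94 ± 0.253 (SD, n = 4). The difference was −1.50 with a standard error of 0.18. The probe was nevertheless among the dimmest measured. Its processed signal before scaling was 7.55, 8.30, 15.8 and 13.7 in the controls and 5.15, 6.58, 6.36 and 7.64 with irisin, so that the highest irisin array then lay above the lowest control array. The difference without scaling was −0.76.

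The raw spots show how near to the background Boc was read. Its median spot signal was 26.5, 28, 37 and 36 on the control arrays, over a local background of 26, 22.5, 23 and 22. On the irisin arrays the spot gave 28, 28, 27 and 29.5, over 26, 21, 20 and 21. The 2 control arrays with spots of 37 and 36 stood above all irisin arrays, and the other 2 did not. Before background subtraction the negative control spots had a mean of 18.2 on control and 19.5 on irisin arrays. The Boc probe was rated well above background on all 8 arrays. The dimmest signal so rated was between 4.21 and 4.73 over the arrays, and by that rating the Boc probe could not lie below it.

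**Figure D2:**
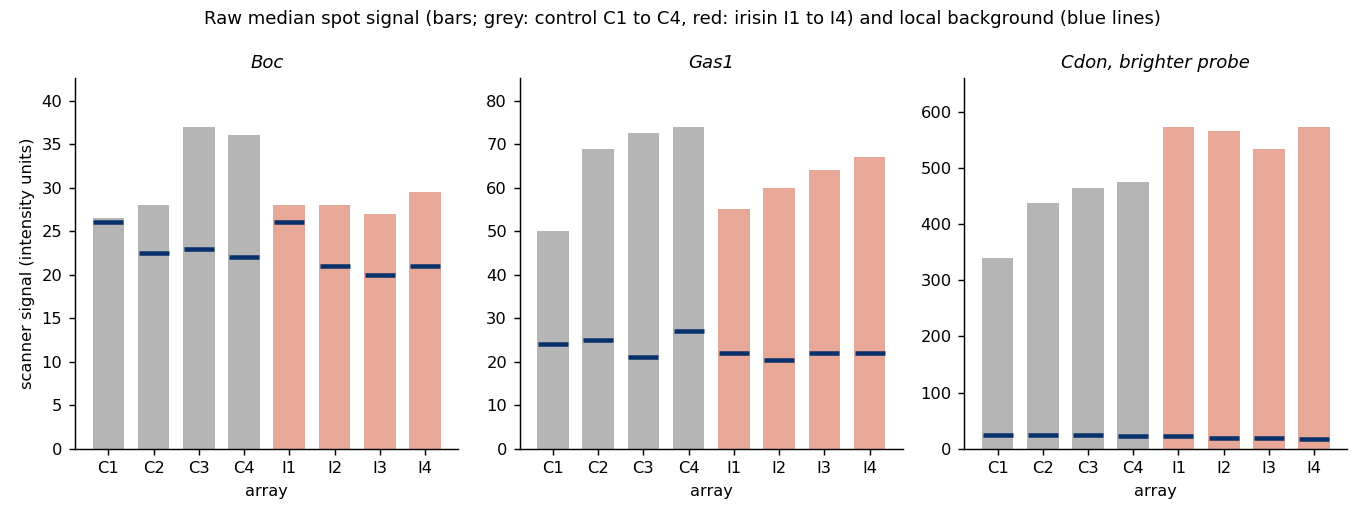
Median spot signal in scanner units (bars) and local background (dark lines) of Boc, Gas1 and the brighter Cdon probe on each array, C1 to C4 being controls and I1 to I4 irisin. Boc spots of 26.5 to 37 stand over a background of 20 to 26, Gas1 spots are alike in both groups before scaling, and Cdon spots are higher on the irisin arrays.

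Gas1 is a membrane-anchored co-receptor without a cytoplasmic part, and its name comes from its rise in growth-arrested fibroblasts. Its measured probe had levels of −3.41, −3.30, −3.34 and −3.28 in the controls and −4.42, −4.05, −4.12 and −4.06 with irisin. The groups did not overlap, and the spread within them was small beside the gap. Gas1 fell by 0.83 on the log2 scale (standard error 0.098, 95% interval −1.05 to −0.61, adjusted p = 0.000230 by limma, exact permutation p = 0.0286). The latter is the smallest p that 4 arrays against 4 allow. Both Hhip probes, which were above background on no array, reached the same exact permutation p on this scale. It therefore does not set Gas1 apart from a background reading. Before scaling the signals were 35.0, 49.2, 52.9 and 51.2 in the controls and 37.1, 41.1, 46.4 and 50.9 with irisin. These groups overlapped throughout, and the unscaled difference was −0.094 (adjusted p = 0.629 by limma). The other 2 Gas1 probes were above background on no array and so give no measure of the fall.

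Cdon, the third co-receptor, is the closest relative of Boc. Its brighter probe was at −0.15, −0.17, −0.18 and −0.0084 in the controls and at −0.31, −0.16, −0.40 and −0.39 with irisin, with groups that overlapped. The difference was −0.19 (95% interval −0.38 to 0.0050, adjusted p = 0.157 by limma). Its dimmer probe differed by −0.13 (95% interval −0.37 to 0.10, adjusted p = 0.428 by limma). Both intervals lie inside 1.5-fold in either direction on this scale. Without scaling, both were higher with irisin, by 0.55 and 0.60, and only the dimmer probe then passed the threshold.

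Since scaling to a percentile moves every probe of an array alike, the change of one co-receptor relative to another on the same array does not depend on it. This comparison was chosen after the values were seen. Relative to the brighter Cdon probe, Gas1 was lower with irisin by a difference of −0.64, from a mean of −3.20 ± 0.0710 (SD, n = 4) to −3.85 ± 0.199 (SD, n = 4), with an exact permutation p of 0.0286. Relative to the dimmer Cdon probe the difference was −0.70 (exact permutation p = 0.0286, the smallest possible). Boc relative to these probes differed by −1.31 and −1.36, and relative to Gas1 by −0.67, given without a test. Boc and Gas1 were thus lower relative to Cdon on each of the 4 irisin arrays than on any control array. A signal that stays flat before scaling is lower relative to Cdon too, since without scaling both Cdon probes were higher with irisin, by 0.55 and 0.60. Gas1 then differed by −0.094, and a Hhip probe that read only background by −0.0076. A lower value relative to Cdon, with its permutation p, therefore does not by itself show a fall of Gas1. Normexp, quantile and loess steps move dim and bright probes by different amounts, and with these the relative difference of Gas1 was smaller, down to −0.35 with normexp.

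The probes of the 3 co-receptors differed in brightness, which between probes is no measure of transcript amount, and the share of calls varied with it. When the tested probes were ordered by mean signal and cut into 10 classes of equal size, Boc lay in class 1, the dimmest, and Gas1 in class 3. In the class of Boc 45.2% of the probes were called lower with irisin, with a median change of −0.51. In that of Gas1 the share was 19.6% and the median change −0.15. The Cdon probes lay in classes 4 and 6, where 8.92% and 1.54% were called lower. The part of this in the values of Boc and Gas1 was not tested. The dimmer Ptch1 probe shared the class of Boc, and Gli3 and the dimmer Sufu probe that of Gas1, and none of these was called.

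**Figure D3:**
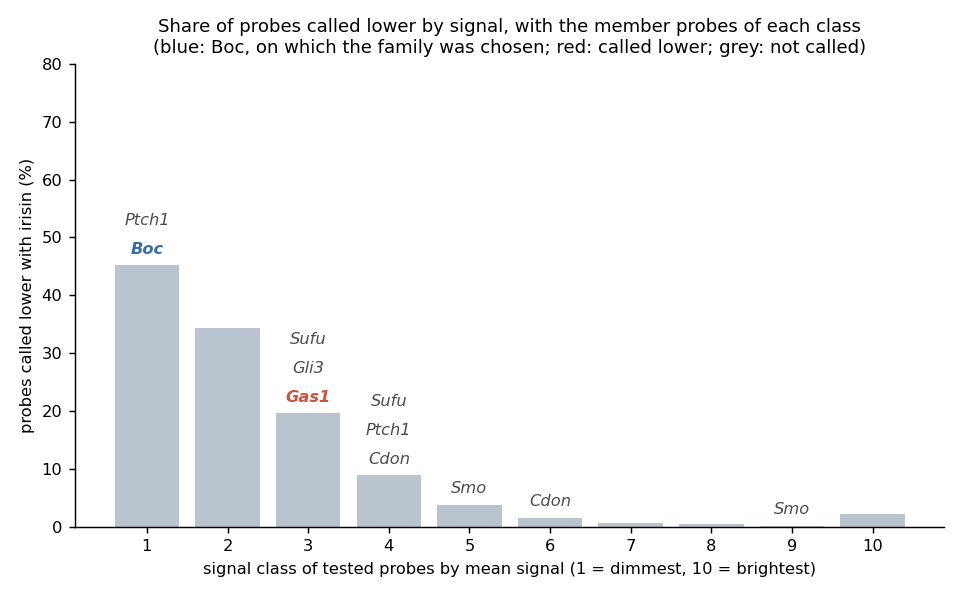
Share of tested probes called lower with irisin in each of 10 classes of mean signal, from the dimmest (1) to the brightest (10), with the member probes of each class written above its bar. The share falls from 45.2% in the class of Boc to 19.6% in the class of Gas1 and 0.208% in that of the brighter Smo probe.

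Ptch1, the receptor and at the same time a target gene of the pathway, was read by 2 probes. Whether these moved alike depended on the processing. The brighter probe was at −3.26, −3.22, −3.24 and −3.01 in the controls and at −2.89, −3.11, −3.29 and −3.30 with irisin, and the groups overlapped. It differed by 0.034 (95% interval −0.21 to 0.28, adjusted p = 0.871 by limma). The dimmer one, in the dimmest class, differed by −0.35 (95% interval −0.58 to −0.11, adjusted p = 0.0346 by limma), which is short of 1.5-fold, and its groups did not overlap. Without scaling these differences were 0.77 and 0.39. The brighter and the dimmer probe were also apart with normexp (−0.22 and −0.59) and spike-in scaling (0.61 and 0.23). The same held with scaling to the median of detected probes (0.02 and −0.36). With quantile normalization they were close, at 0.15 and 0.12, as with cyclic loess, at 0.17 and 0.12. The fall of the dimmer probe was thus absent under these last steps.

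Smo, the membrane protein that passes the signal on, was read by a bright and a dimmer probe. The bright probe was at 3.69, 3.70, 3.78 and 3.67 in the controls and at 3.71, 3.70, 3.47 and 3.71 with irisin. Apart from the third irisin array, the values of both groups lay within a narrow band. The difference was −0.063 (95% interval −0.25 to 0.12, adjusted p = 0.667 by limma). A dimmer Smo probe differed by −0.36 (95% interval −0.55 to −0.18, adjusted p = 0.00839 by limma) with no overlap between the groups, again short of 1.5-fold. The 2 Smo probes thus had intervals that barely met, and the unscaled differences were 0.68 and 0.38.

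Of the GLI factors, which are zinc finger proteins that bind DNA, only Gli3 was measured on all arrays. Gli3 is known mainly as a repressor. It was at −3.85, −3.98, −3.84 and −3.78 in the controls and at −4.05, −4.05, −3.60 and −3.63 with irisin. The irisin arrays fell on both sides of the controls, and the difference was 0.031 (95% interval −0.24 to 0.30, adjusted p = 0.898 by limma). Without scaling it was 0.77 (adjusted p = 0.000924 by limma), where the median over all tested probes was 0.66. Gli1, the activator whose transcription is the usual readout of the pathway, had processed signals of 3.08, 3.45, 5.34 and 5.21 in the controls and 4.67, 5.62, 4.65 and 6.27 with irisin. These values straddle the limit of detection in both groups, so no fold is given. Gli2, the main activator, had processed signals between 0.956 and 1.01 on 7 arrays and of 1.70 on the fourth irisin array, and was rated above background on none.

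The inhibitors were divided between detection and background. Sufu, which binds GLI proteins, differed by 0.0085 with its brighter probe (95% interval −0.20 to 0.21, adjusted p = 0.964 by limma) and by −0.12 with its dimmer one (95% interval −0.33 to 0.092, adjusted p = 0.433 by limma). Its brighter probe was at −2.83, −2.70, −2.52 and −2.61 in the controls and at −2.79, −2.61, −2.60 and −2.63 with irisin. The irisin values thus lay within the range of the controls. Without scaling the brighter and the dimmer Sufu probe differed by 0.75 and 0.62. Hhip, the membrane protein that sequesters ligand, was above background on no array with either of its 2 probes. The steadier of these read between 1.04 and 1.10 on all 8 arrays before scaling. After scaling that same background reading was −0.75 with irisin relative to control, which is the size of the difference between the 75th percentiles. This value is a reading of the background and no measure of Hhip.

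**Figure D4:**
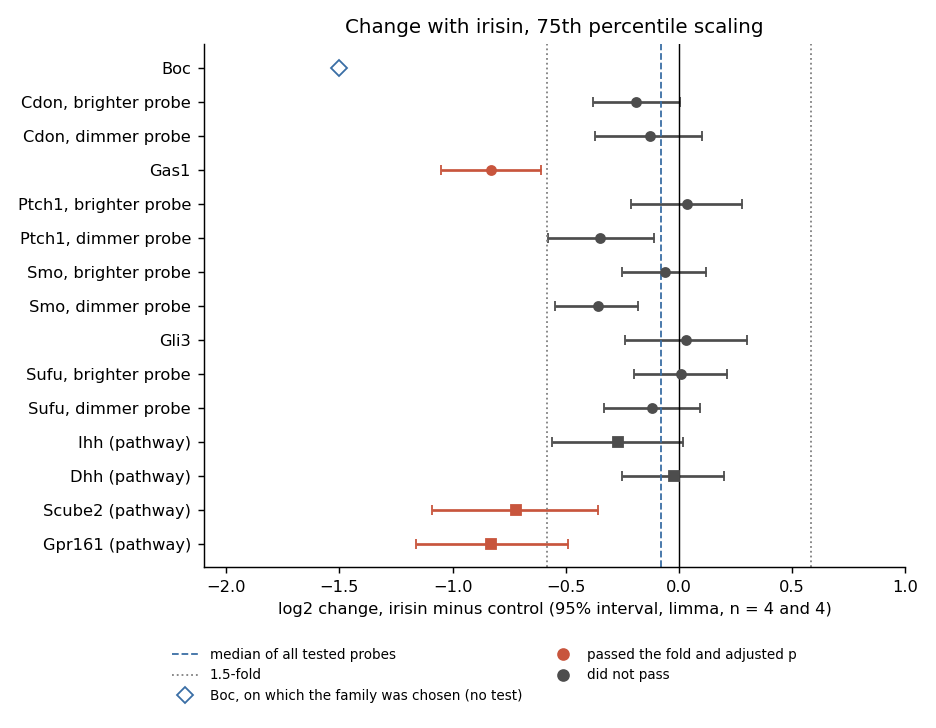
Log2 change with irisin after scaling to the 75th percentile, with 95% intervals from limma (n = 4 and 4), for the 11 tested member probes (circles) and 4 other pathway genes (squares). Boc, on which the family was chosen, is drawn as an open diamond at −1.50 without interval or test. Red marks a change that passed 1.5-fold and the adjusted p, as Gas1, Scube2 and Gpr161 did, and the dashed line is the median of all tested probes (−0.080).

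The changes of the members were set side by side under 7 ways of processing the arrays. Boc, given as a description, was between −1.51 with scaling to the median of detected probes and −0.76 with no scaling. Gas1 was between −0.85 and −0.094, and with spike-in scaling (−0.26) or none it did not pass the threshold. With normexp background correction, which adds an offset of 50 to the signals, Boc was at −0.77 and Gas1 at −0.74, while the 2 background probes of Hhip were at −0.68 and −0.67. The dimmer Ptch1 probe, at −0.59, was then also called lower. On that scale Boc and Gas1 thus lay about 0.10 or less from probes that read only the background. With quantile normalization Boc was at −0.97 and Gas1 at −0.67, and the median over all tested probes was 0.0095. With spike-in scaling that median was 0.50, and the brighter Ptch1 probe, Gli3 and the brighter Sufu probe were then called higher, at 0.61, 0.61 and 0.59.

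**Figure D5:**
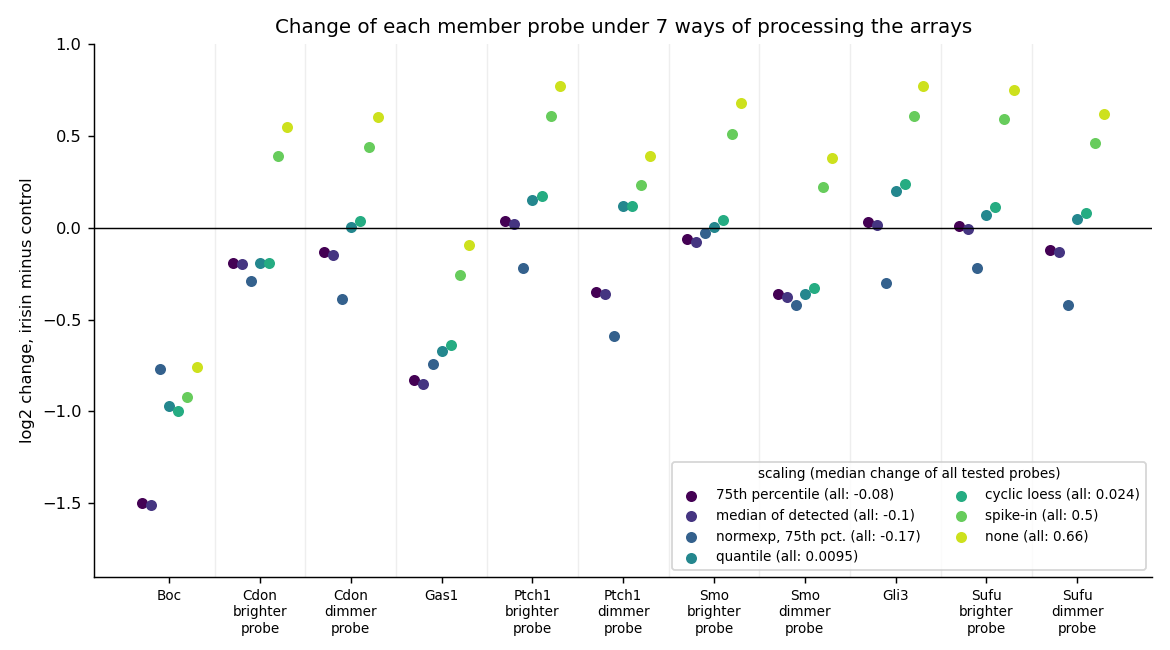
Log2 change with irisin of each tested member probe under 7 ways of processing the arrays, one color each, with the median change of all tested probes in the legend. Boc lies between −1.51 and −0.76, and Gas1 approaches 0 at −0.094 without scaling, where the other members are higher.

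Other genes of the pathway were read in 5 lists of 59 genes, of which 50 had a probe that was tested. When the brightest probe stood for its gene, 2 of the 50, Scube2 and Gpr161, were called lower and none higher, and the median change was 0.00094. Over all 14312 tested genes 10.2% were called lower and 0.531% higher, and the median was −0.064. At the level of probes, 5 of 70 were called lower, against 11.7% of all 24093 tested probes.

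Among the ligands, Dhh and Ihh were above background on all arrays, and Shh on none. Dhh was at 1.10, 1.16, 1.21 and 1.22 in the controls and at 1.00, 1.39, 1.01 and 1.20 with irisin, a difference of −0.022 (95% interval −0.25 to 0.20, adjusted p = 0.909 by limma). Ihh, known from bone and gut development, was at 0.056, −0.22, −0.44 and −0.31 in the controls and at −0.61, −0.27, −0.72 and −0.41 with irisin. These groups overlapped, and the difference was −0.27 (95% interval −0.56 to 0.018, adjusted p = 0.173 by limma). Of the genes that load or release ligand, Scube2, a secreted carrier of lipid-bound ligand, fell with both of its probes, by 0.72 (adjusted p = 0.00839 by limma) and by 1.12 (adjusted p = 0.000205 by limma). Without the first irisin array the brighter of these was at −0.57 and no longer passed. Hhat, the acyltransferase that attaches palmitate to the ligand, differed by 0.017 with its brighter probe and fell by 1.18 with its dimmer one (adjusted p = 0.000106 by limma). Disp1, the ligand exporter, differed by 0.27 (adjusted p = 0.203 by limma).

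Among the other receptors and transducers, Gpr161, a ciliary receptor that restrains the pathway, fell by 0.83 (95% interval −1.16 to −0.49, adjusted p = 0.00232 by limma), and its probe lay in the same dimmest signal class as that of Boc. Evc, which binds Smo at the base of the cilium, differed by 0.17 with its brighter probe and fell by 1.02 with its dimmer one (adjusted p = 0.0194 by limma). The dimmer Evc probe was at −4.68, −5.61, −5.91 and −4.61 on the irisin arrays and between −4.50 and −3.96 in the controls. Hhat and Evc therefore each had probes that disagreed, and in both the dimmer probe was the lower. Without scaling the probes of Scube2 were at 0.013 and −0.38, and Gpr161 was at −0.088. The brighter and dimmer probes were then at 0.75 and −0.44 for Hhat and at 0.91 and −0.28 for Evc.

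The lists further down the pathway held no call after scaling to the 75th percentile. Over all tested genes 10.2% were called lower. The brightest probes of most of these genes lay in signal classes 4 to 10, where few probes were called lower, at most 8.92% in a class. None of 15 kinases, adaptors and turnover genes of GLI was called by limma (4 had an unadjusted p under 0.05), and the lowest was Prkaca, the catalytic subunit of protein kinase A that marks GLI proteins for processing, at −0.51 (adjusted p = 0.00488 by limma) and at 0.23 without scaling. None of 11 genes of the cilium and intraflagellar transport was called (1 with an unadjusted p under 0.05), with changes between −0.21 and 0.26. None of the 13 tested genes of 17 known as GLI targets was called, with 0 at an unadjusted p under 0.05 and a median of −0.037. Among them the cyclin Ccnd1 differed by −0.044 (95% interval −0.29 to 0.20), the secreted phosphoprotein Spp1 by 0.35 (95% interval −0.037 to 0.73) and the ligand Bmp4 by 0.093 (95% interval −0.13 to 0.32). Foxf1, Foxl1, Foxc2 and Sfrp1 were not above background in all arrays of a group. The 13 include no member of the family, since the classical targets Gli1 and Hhip were not measured above background throughout and Ptch1 is described above.

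Stellate cells carry much of the hedgehog response of the liver, and the markers of such cells were read beside the members. Of the 3 stellate cell and fibroblast markers above background, Acta2 fell by 0.68 and Gfap by 0.62, and Col1a1 differed by 0.0064. Without scaling these differences were 0.059, 0.11 and 0.74, so the direction of Acta2 and Gfap turns there. The summed level of the 8 markers was between 0.0842 and 0.0987 of the 75th percentile in the controls and between 0.0649 and 0.0699 with irisin, so that the groups did not overlap. The summed level of 5 cholangiocyte markers, with Krt7, Krt19 and Sox9 above background on all arrays, was between 42.5 and 50.3 in the controls and between 41.1 and 48.0 with irisin. The summed level of 10 hepatocyte markers was between 456 and 509 in the controls and between 369 and 439 with irisin. The summed level of 5 macrophage and leukocyte markers was between 0.536 and 0.632 in the controls and between 0.456 and 0.540 with irisin, and that of 5 endothelial markers between 0.701 and 0.788 and between 0.413 and 0.584. On this scale the stellate, hepatocyte and endothelial sums were all lower with irisin without overlap, as were Boc and Gas1. A sum leans on its brightest probes. Of the hepatocyte markers, Krt18 was at −0.47 and the brighter Trf probe at −0.39, but Alb at 0.11 and Fgb at 0.14. Without scaling these were at 0.27, 0.35, 0.84 and 0.88. None of the 10 hepatocyte markers was called. The brightest endothelial probe, of Kdr, was at −0.56, and at 0.18 without scaling. Pecam1, the only endothelial marker called lower, was at −0.61 (adjusted p = 0.00214 by limma), and at 0.13 without scaling. Of the macrophage and leukocyte markers, a dimmer Csf1r probe was called lower at −0.74, and was at −0.0055 without scaling. The brightest Csf1r probe, at −0.49, and Cd68, at 0.0062, were not called. Stab2, Lyve1 and Cdh5 were not above background throughout a group. The part of these sums in the values of Boc and Gas1 was not tested.

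The genes nearest to Boc in profile were sought over the 8 arrays by the root mean square difference of the log2 levels after the mean of each probe was taken off. They were Olfr905 (0.0910), Gm6042 (0.159), Ubash3a (0.163), Selplg (0.166) and Tcl1b2 (0.183), against a median of 0.772 over all named tested probes. All 5 were lower with irisin, by −1.30 to −1.48, which follows from their choice by likeness to the profile of Boc. Of the 5, 4 were also in the dimmest signal class. The nearest member was Gas1, with a difference of 0.405, and the other members were between 0.654 and 0.831. These distances describe the 8 arrays and carry no test.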

How the data were processed

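The authors labeled RNA with Cy3, scanned the arrays and deposited signal intensity from Agilent Feature Extraction 12.0.3.1, background-subtracted and not normalized between arrays. The deposited value table holds the same intensity averaged per probe, within 0.00050%. Control spots and marked outlier spots were left out, spots of a probe were averaged, and from the log2 value of each probe that of the array's 75th percentile was subtracted. Probes were named by accession through the RefSeq table of GRCm38.p6, which matched 28663 of 39429 probes. A probe was tested with limma 3.58.1 (lmFit and eBayes, R 4.3.3) if well above background on all 4 arrays of a group, 24093 in all, and called at 1.5-fold with a Benjamini-Hochberg adjusted p under 0.05. For members other than Boc the 70 assignments of the arrays to the groups also gave an exact permutation test. It was two-sided and unadjusted over 16 probes, 10 of them tested with limma. The number of arrays, 4 per group, limits the precision.

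The members and gene lists were chosen with earlier results of these data known. Named are all members, Shh, Ihh and Dhh, called pathway genes, and the 5 profiles nearest to Boc. Other names were chosen after their values were seen, and 1 gene of the lists is not reported here. Alternatives were normexp (offset 50, on the median spot signal), quantile, cyclic loess, median, spike-in and no scaling, the value table, other filters, marked spots kept, an intensity trend, a replicate block, the methods' ANOVA, other thresholds and each array left out. For normexp, spots with a marked local background, at most 2.92% of an array, were given the median background, a step chosen after seeing the data.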

Additional observations from a re-analysis of the deposited data

Results flagged for a closer look

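In 3 of 52 groups of 4 arrays, 1 array stood apart from the other 3 by more than Dixon's 95% critical value, and chance alone marks about 1 group in 20. The brighter Ptch1 probe was at −3.01 on the fourth control array and between −3.26 and −3.22 on the other 3. The brighter Smo probe was at 3.47 on the third irisin array and between 3.70 and 3.71 on the other 3. The brighter Sufu probe was at −2.79 on the first irisin array and between −2.63 and −2.60 on the other 3. None of these probes was called with all arrays or with any array left out.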

How the results depend on the processing

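Over all probes 2988 were called, against 1691 with quantile normalization, 1625 with cyclic loess, 8233 with spike-in scaling, 15082 with no scaling, 12934 with no filter on dim probes, 5910 by the adjusted p alone and 801 at 2-fold. The share of higher calls was 5.76%, and it was 39.6%, 43.0%, 95.6% and 98.9% under the first 4 of these. Of the member probes 2 were called, against 4 with spike-in scaling, 7 with no scaling, 4 with no filter, 4 by the adjusted p alone and 1 at 2-fold. These counts hold Boc, on which the family was chosen, and say nothing about it. Of the other members 1 probe, Gas1, was called lower, against 3 higher with spike-in scaling, 6 higher with no scaling, 3 lower with no filter, 3 lower by the adjusted p alone and 0 at 2-fold by limma (3 had an unadjusted p under 0.05). Of the pathway genes 2 were called, both lower, against 0 with quantile normalization and 0 with cyclic loess by limma (10 and 11 with an unadjusted p under 0.05), 23 higher with spike-in scaling, 37 higher without scaling, 9 lower with no filter and 1 lower by the methods' ANOVA. With no scaling the dimmer Cdon probe turned to 0.60, the brighter Smo probe to 0.68, the dimmer Sufu probe to 0.62, Dhh to 0.72 and Scube2 to 0.013. That step leaves the difference between the 75th percentiles in every value, and without the filter probes at background enter, both Hhip probes among them. The cause of the other changes was not tested.

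Leaving out 1 array gave 2785 to 3387 called probes, 2 member probes in each case (Boc and Gas1), and 1 or 2 pathway genes, the lower count without the first irisin array. Gas1 was then between −0.87 and −0.75. With the replicate block 3005 probes, 2 member probes and 2 pathway genes were called. The correlations of same-numbered arrays were 0.109, −0.348, −0.125 and 0.165, and those of differently numbered arrays lay between −0.238 and 0.365. The labels do not say whether the numbers pair the samples, and 4 arrays per group cannot settle it.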
